A study of Mus musculus with 4 samples.

Results

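The genes examined here build the sarcomere, the contractile unit of striated muscle, and the Z-disc that bounds it. They were 45 genes listed by their symbols with earlier results of these data known, and their probes were kept or dropped by intensity. The platform annotation gave 41 of them a probe, and the symbols Myh7b, Myl9, Mybphl and Tcap matched none. Of the 49 probes of these 41 genes, 48 were kept, and they stood for 40 genes, out of 15955 genes kept among 19321 with a named probe. RNA of ventricle muscle came from male mice of the strain 129SV, with 2 samples of the genotype TRPC6 KO and 2 samples of wild type. TRPC6 is a calcium-permeable cation channel, and the comparison asks which ventricular transcripts differ where its gene was deleted. The labels give neither the age of the mice nor the way the deletion was made, and they do not say whether the samples of a group came from separate animals, so that the spread behind the p-values may be technical only.

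In a sarcomere, thick filaments of myosin pull on thin filaments of actin when calcium binds troponin on the thin filament. Thin filaments are anchored and crosslinked in the Z-disc, thick filaments are held together in the M-band, and the giant protein titin runs from the one to the other. Most of these proteins exist as isoforms from separate genes: the adult mouse ventricle uses alpha myosin heavy chain (Myh6) and cardiac troponins, while the fetal ventricle also uses isoforms of slow skeletal muscle, and fast skeletal muscle and the atria have isoforms of their own. A shift from alpha to beta myosin heavy chain (Myh7) is a textbook mark of the stressed rodent ventricle.

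Every sample had its own 1-colour array, and with 4 arrays in all the precision of each value below is limited by their number. The median gene probe read 97.7 and 97.1 units on the knockout arrays and 95.5 and 106 units on the wild-type arrays, against limits of background of 85.5 and 83.3 units on the knockout arrays and 80.8 and 91.5 units on the wild-type arrays. Such a limit is the 95th percentile of the blank and negative control spots of that array. The single Trpc6 probe read 84.1 and 82.6 units on the knockout arrays and 80.5 and 89.2 units on the wild-type arrays, below the limit on all 4, so the labels could not be checked with it. All 10 cardiomyocyte marker genes (among them Ryr2, Pln and Mb) were above background on all 4 arrays. In RNA of whole tissue, fewer cells of a type and less RNA per cell cannot be told apart. Levels below are log2 values of intensity after quantile normalization between arrays, in the order of the replicate numbers. Levels of different probes are not comparable with each other, and every difference given is knockout minus wild type.

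Promoter windows are shown for the 3 genes with an unadjusted p under 0.05 in the comparison (Tnnt1, Myl3 and Capza2) and for Tnnt2, the ventricular counterpart of Tnnt1. Each window runs 5′ to 3′ on the gene's strand, with 250 bases before and 50 bases from the start of transcription, and comes from RefSeq on GRCm38.p6. Capitals mark motifs searched on both strands: the TATA box TATAAA, the MCAT element CATTCC with its reverse complement, the serum response element known as the CArG box, and the MEF2 site. A TATAAA can lie inside a MEF2 site, and no marked motifs overlap in the windows shown apart from the CArG box, which reads as a match on both strands.
Tnnt1, slow skeletal troponin T, chr7:4515926-4516225, minus strand: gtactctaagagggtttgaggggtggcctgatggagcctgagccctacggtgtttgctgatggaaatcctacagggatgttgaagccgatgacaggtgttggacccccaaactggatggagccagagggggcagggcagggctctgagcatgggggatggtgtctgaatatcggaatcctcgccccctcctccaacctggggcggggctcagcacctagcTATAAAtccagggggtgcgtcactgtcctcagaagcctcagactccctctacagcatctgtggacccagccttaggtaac
Tnnt2, cardiac troponin T, the first of 2 windows, chr1:135836084-135836383, plus strand: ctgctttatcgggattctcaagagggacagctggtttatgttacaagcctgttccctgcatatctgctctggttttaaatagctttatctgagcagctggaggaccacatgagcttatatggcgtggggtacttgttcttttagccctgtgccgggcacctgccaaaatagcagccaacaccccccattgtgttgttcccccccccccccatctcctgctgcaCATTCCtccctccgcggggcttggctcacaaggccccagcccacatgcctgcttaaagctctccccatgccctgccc
Myl3, ventricular essential light chain, chr9:110763428-110763727, plus strand: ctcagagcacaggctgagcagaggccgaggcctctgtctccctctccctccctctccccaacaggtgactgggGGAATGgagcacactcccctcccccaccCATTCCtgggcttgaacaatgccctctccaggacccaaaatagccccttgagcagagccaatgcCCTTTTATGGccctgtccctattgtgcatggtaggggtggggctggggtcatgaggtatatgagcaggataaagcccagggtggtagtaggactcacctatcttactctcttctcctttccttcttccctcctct
Capza2, actin capping protein, chr6:17636760-17637059, plus strand: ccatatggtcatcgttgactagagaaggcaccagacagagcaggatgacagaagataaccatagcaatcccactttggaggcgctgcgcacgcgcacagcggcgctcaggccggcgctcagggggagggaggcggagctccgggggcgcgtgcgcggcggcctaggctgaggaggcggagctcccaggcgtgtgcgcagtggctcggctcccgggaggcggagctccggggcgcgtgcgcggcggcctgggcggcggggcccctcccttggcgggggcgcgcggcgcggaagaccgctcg
The Tnnt1 window held TATAAA from 30 to 25 bases before the start and none of the other motifs. The Tnnt2 window held CATTCC from 27 to 22 bases before the start. In the Myl3 window, CATTCC stood on both strands and a CArG box lay from 85 to 76 bases before the start. The Capza2 window held none of the motifs and was 73.0% G and C, against a median of 56.8% over the members' 48 windows.
Windows were found for 36 of the 45 genes. A CArG box was present in 14.6% of their 48 windows and in 1.63% of all 32851 promoter windows of the table, a MEF2 site in 10.4% and 1.86%, CATTCC in 29.2% and 14.7%, and TATAAA in 10.4% and 13.6%. A match of letters describes the window and is no evidence of a bound site, and windows of 1 gene can overlap.

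The isoforms differed in whether they were measured at all. Each of the 11 ventricular isoforms was above background on all 4 arrays. Of the 6 listed isoforms of fetal ventricle or slow skeletal muscle, Myh7, Tnnt1, Tnni1 and Tpm3 were kept. Mybpc1, slow skeletal myosin-binding protein C, was not above background on any array, with 79.1 and 80.7 units on the knockout arrays and 77.2 and 82.9 units on the wild-type arrays. All 8 isoforms classed as fast skeletal were kept, yet several sat at the limit. This class also holds Neb and Tpm2, which are of skeletal muscle but not of fast fibres alone. Tnnt3, Tnnc2 and Actn3, encoding fast troponin T, fast troponin C and the alpha-actinin of fast fibres, were above background on 1 knockout and 1 wild-type array each. Myoz1, a Z-disc protein of fast fibres, read 85.7 and 84.0 units on the knockout arrays and 81.0 and 92.4 units on the wild-type arrays, within 1 unit of each array's limit. The values of these 4 genes are those of spots at background. The atrial light chains Myl4 and Myl7 were above background on all 4 arrays.

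**Figure D1:**
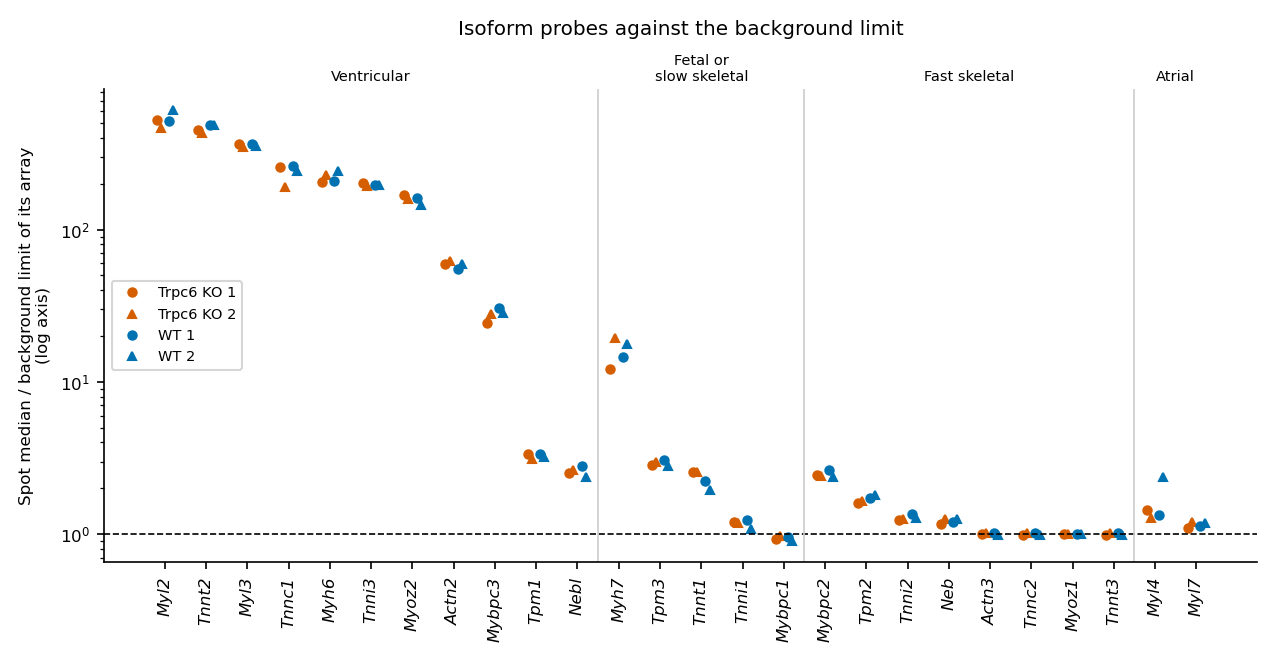
Spot median of each isoform's probe divided by the background limit of its array (log axis), with 1 point per array and Trpc6 KO left of WT; the dashed line is the limit. The 11 ventricular isoforms lie above the line on all 4 arrays, Mybpc1 lies below it on all 4, and Actn3, Tnnc2, Myoz1 and Tnnt3 lie on it; heights of different genes are not comparable levels.

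No sarcomere or Z-disc gene passed the test in the comparison of Trpc6 knockout with wild-type ventricle. The fit with limma over 15955 genes left 0 genes at an adjusted p under 0.05 (0%), and the smallest adjusted p among the 40 members was 0.726, against 0.369 among all genes. At an unadjusted limma p under 0.05 there were 3 members, against 1076 genes in all (6.74%). Tnnt1 and Myl3 were higher, against 3.66% of all genes called in that direction, and Capza2 was lower, against 3.08%. By sign alone 23 members were higher and 17 lower. Their median log2 fold change was 0.01 and that of all genes 0.00, and the median size of the fold change was 0.059 over the members and 0.043 over all genes. The groups did not overlap for 9 of the 40 members, 22.5%, while this held for 36.8% of all genes. Of the 9, Tnnt1, Flnc, Myl3, Myoz2 and Tmod1 were higher (19.4% of all genes were) and Ldb3, Capza2, Tpm2 and Tnni2 were lower (17.4% of all genes were). The members' shares were thus near or below those of the whole array.

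**Figure D2:**
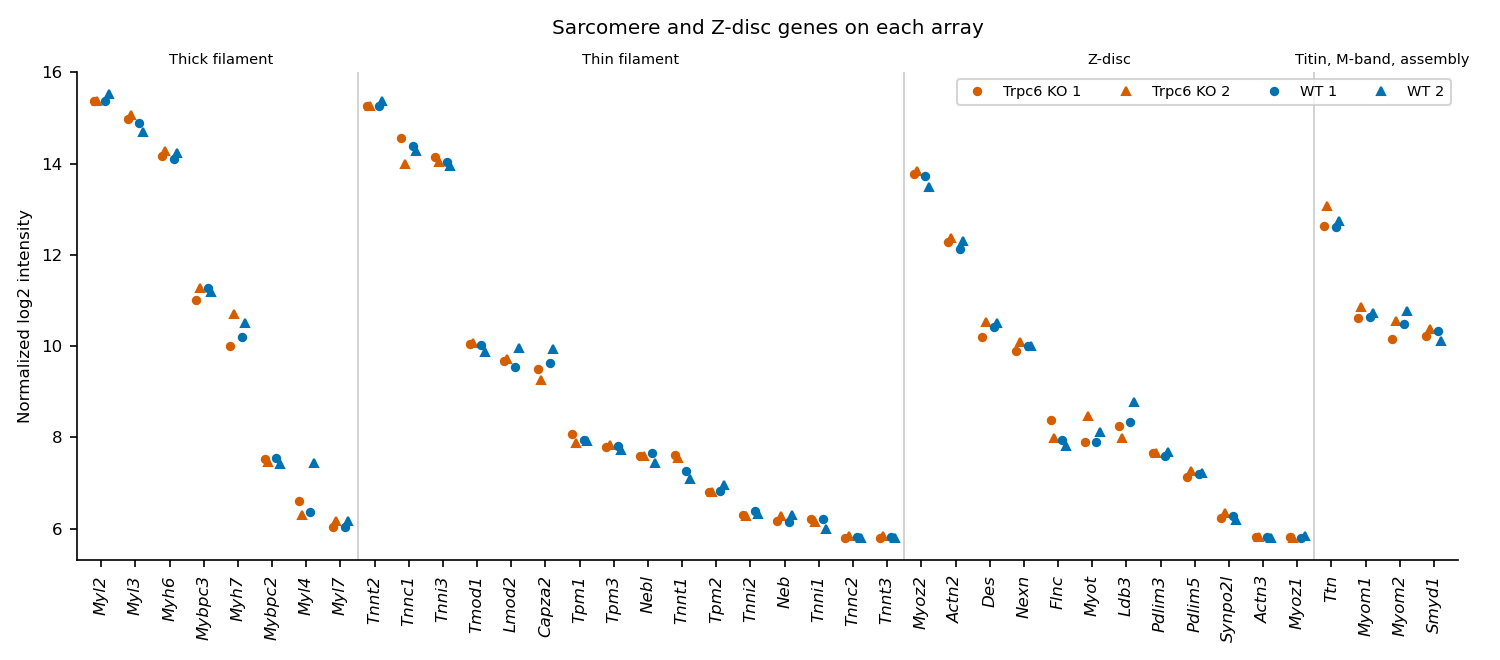
Normalized log2 intensity of the 40 members on each array, by role in the sarcomere, with Trpc6 KO left of WT. For 9 members both knockout points lie on one side of both wild-type points; the wild-type sample 2 stands out for Myl4, and levels of different genes are not comparable.

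The thick filament showed no common direction, with 4 of its 8 kept genes higher and 4 lower and a median log2 fold change of 0.00. The exception to overlapping groups was Myl3, the essential light chain of ventricular and slow myosin. It was at 14.98 and 15.06 in the knockout and at 14.89 and 14.68 in wild type, a difference of 0.23 ± 0.08 (limma standard error) or 1.18-fold, with an unadjusted p of 0.0413 and an adjusted p of 0.726. Both knockout samples were above both wild-type samples after quantile normalization, and also in the authors' table, at 29384 and 29684 units in the knockout and 29028 and 26210 units in wild type. The uncorrected spot medians overlapped, at 31006 and 29091 units in the knockout and 29633 and 32579 units in wild type. With each array scaled to its 75th percentile instead, the groups overlapped and the log2 difference was 0.04 with an unadjusted limma p of 0.568. The size of the difference in Myl3 therefore depended on the normalization.

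The heavy chains did not separate the groups. Myh6 was at 14.17 and 14.29 in the knockout and at 14.10 and 14.24 in wild type, a log2 difference of 0.06 ± 0.07. Myh7 was at 10.003 and 10.716 in the knockout and at 10.21 and 10.50 in wild type, a log2 difference of 0.01 ± 0.26 with a 95% interval of -0.69 to 0.70. The knockout samples of Myh7 were the lowest and the highest of the 4, so the interval holds a change of over 1.5-fold in either direction.

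Myl2, the regulatory light chain of the ventricle, was at 15.37 on both knockout arrays and at 15.37 and 15.52 on the wild-type arrays. Values this high are shared ranks: quantile normalization gives the probe of a given rank the same value on every array. The spot medians of Myl2 were 44774 and 38619 units in the knockout and 41652 and 55654 units in wild type, and no member's spot was at the scanner's maximum. Mybpc3, cardiac myosin-binding protein C, was at 11.02 and 11.27 in the knockout and at 11.27 and 11.20 in wild type. Its fast skeletal relative Mybpc2 was at 7.54 and 7.46 in the knockout and at 7.55 and 7.42 in wild type. For both genes the groups overlapped.

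The atrial light chains differed in their spread. Myl7 was at 6.03 and 6.18 in the knockout and at 6.04 and 6.16 in wild type. Myl4, also used by the fetal ventricle, was at 6.60 and 6.31 in the knockout and at 6.37 and 7.44 in wild type, a log2 difference of -0.45 ± 0.37 with an unadjusted limma p of 0.287. Wild-type sample 2 alone was high, at 219 units against 108 units in wild-type sample 1, and without it the log2 difference was 0.09.

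On the thin filament, 9 of 16 kept genes were higher and 7 lower, with a median log2 fold change of 0.01. The smallest p of all members belonged to Tnnt1, the troponin T of slow skeletal muscle, which ties the troponin complex to tropomyosin. It was at 7.61 and 7.56 in the knockout and at 7.27 and 7.10 in wild type. In scanner units this was 217 and 213 in the knockout and 181 and 179 in wild type, with no overlap before or after normalization. The log2 difference was 0.40 ± 0.07, or 1.32-fold, with a 95% interval of 0.21 to 0.59, an unadjusted limma p of 0.00362 and an adjusted p of 0.726. Leaving out each array in turn gave 0.31 to 0.49, and subtracting the local background gave 0.03. The authors' table, which subtracts a constant background, gave knockout and wild-type means of 131 and 87.0 units, a ratio of 1.51.

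Capza2 encodes a subunit of CapZ, the protein that caps actin filaments at the Z-disc and in other cells. It was at 9.50 and 9.26 in the knockout and at 9.62 and 9.95 in wild type. Both knockout samples were lower, by 0.40 ± 0.14 on the log2 scale in the mean or 1.32-fold, with an unadjusted limma p of 0.0391 and an adjusted p of 0.726. The log2 difference was -0.24 without wild-type sample 2 and 0.50 with the local background subtracted, so its sign depended on the background correction.

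The cardiac troponins overlapped between the groups or differed little. Tnnt2, cardiac troponin T, was at 15.26 and 15.26 in the knockout and at 15.26 and 15.37 in wild type, again shared ranks. Its spot medians were 38304 and 35901 units in the knockout and 39151 and 44772 units in wild type. Tnni3, the inhibitory subunit of the cardiac troponin complex, was at 14.15 and 14.04 in the knockout and at 14.04 and 13.95 in wild type. The lower knockout value of Tnni3 equalled the higher wild-type value, and the log2 difference was 0.10 ± 0.06. Tnnc1, the calcium-binding subunit shared with slow skeletal muscle, was at 14.56 and 14.00 in the knockout and at 14.38 and 14.29 in wild type. The knockout samples of Tnnc1 lay on either side of both wild-type samples.

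Among the other troponins, the fetal and slow skeletal Tnni1 was at 6.22 and 6.15 in the knockout and at 6.22 and 5.99 in wild type. The fast skeletal Tnni2 was at 6.31 and 6.27 in the knockout and at 6.38 and 6.32 in wild type, a log2 difference of -0.06 ± 0.04 without overlap. Its unadjusted limma p was 0.256. Tnnt3 and Tnnc2 lay between 5.79 and 5.84 on all arrays, at background.

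Tropomyosins lie along the actin filament and carry troponin. Tpm1, the main cardiac one, was at 8.07 and 7.89 in the knockout and at 7.94 and 7.92 in wild type. Tpm2, of skeletal muscle, was at 6.81 on both knockout arrays and at 6.82 and 6.97 on the wild-type arrays. Without wild-type sample 2 the log2 difference of Tpm2 was -0.01. Tpm3, of slow fibres and non-muscle cells, was at 7.80 and 7.83 in the knockout and at 7.82 and 7.72 in wild type by its brightest probe. The log2 differences of its 3 probes were 0.04, 0.13 and -0.16, the second with an unadjusted limma p of 0.0248. The probes of Tpm3 thus differed in sign, and the last is annotated to another transcript record than the first 2.

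Besides Capza2, the genes for filament length and pointed-end capping differed by at most 0.10 on the log2 scale in the mean. Tmod1, tropomodulin, which caps the pointed end, had a log2 difference of 0.10 ± 0.06 without overlap, and 0.02 without wild-type sample 2. Lmod2, leiomodin, which lengthens thin filaments, was at 9.67 and 9.73 in the knockout and at 9.54 and 9.96 in wild type, so that wild type enclosed the knockout. Nebl, the cardiac nebulette, was at 7.59 and 7.60 in the knockout and at 7.66 and 7.44 in wild type. Neb, the nebulin of skeletal muscle, was at 6.18 and 6.27 in the knockout and at 6.16 and 6.30 in wild type. For both, wild type enclosed the knockout by the brightest probe. A second Nebl probe was at 6.86 and 6.83 in the knockout and at 6.80 and 6.76 in wild type, without overlap. Its log2 difference was 0.06, with an unadjusted limma p of 0.173. The other probes of Neb overlapped, with log2 differences of -0.01 and -0.02. A second Tmod1 probe gave 0.06 without overlap.

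In the Z-disc, 7 of 12 kept genes were higher and 5 lower, with a median log2 fold change of 0.02. Ldb3 (ZASP or Cypher), a PDZ and LIM protein that binds alpha-actinin, had the second largest difference of all members in size. It was at 8.25 and 7.99 in the knockout and at 8.33 and 8.79 in wild type, a log2 difference of -0.44 ± 0.18 with an unadjusted limma p of 0.0622 and an adjusted p of 0.756. Both knockout samples were lower, the first by a small margin, and without wild-type sample 2 the log2 difference was -0.21. Flnc, filamin C, which crosslinks actin at the Z-disc and the intercalated disc, was at 8.392 and 7.996 in the knockout and at 7.94 and 7.81 in wild type. Its log2 difference was 0.32 ± 0.14, with an unadjusted limma p of 0.0845 and an adjusted p of 0.765. Without knockout sample 1 the log2 difference of Flnc was 0.12. The signs of both genes turned when the local background was subtracted, to 0.58 for Ldb3 and -0.11 for Flnc.

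Myoz2, the calsarcin of cardiac and slow muscle that tethers calcineurin to the Z-disc, was at 13.77 and 13.83 in the knockout and at 13.73 and 13.49 in wild type. Its log2 difference was 0.19 ± 0.09 without overlap, with an unadjusted limma p of 0.0945, and it was 0.07 without wild-type sample 2. Actn2, the sarcomeric alpha-actinin that crosslinks thin filaments, was at 12.29 and 12.36 in the knockout and at 12.14 and 12.32 in wild type, overlapping by a small margin. Myot, myotilin, was at 7.90 and 8.46 in the knockout and at 7.89 and 8.12 in wild type. The intermediate filament gene Des, desmin, was at 10.21 and 10.53 in the knockout and at 10.42 and 10.51 in wild type. For these 3 genes a knockout value lay within or below the wild-type values.
The other Z-disc genes were Nexn, Pdlim3, Pdlim5, Synpo2l, Actn3 and Myoz1, encoding actin-binding, PDZ-LIM and calsarcin-family proteins. Their log2 differences ran from -0.01 for Pdlim5 to 0.05 for Synpo2l, and the groups of each overlapped. Actn3 was at 5.81 and 5.83 in the knockout and at 5.82 and 5.80 in wild type, and Myoz1 at 5.82 and 5.80 in the knockout and 5.80 and 5.85 in wild type, both at background.

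Titin, the M-band and assembly had 4 genes, and 3 of them were higher by sign. Ttn was at 12.63 and 13.07 in the knockout and at 12.61 and 12.75 in wild type by its brightest probe, a log2 difference of 0.17 ± 0.16. Its other probes gave 0.10 and 0.11, the last with an unadjusted limma p of 0.0371. The mean differences of the 3 Ttn probes had the same sign, while the groups overlapped for the first 2, and without knockout sample 2 the brightest gave -0.04. Myom1, myomesin, which crosslinks thick filaments, was at 10.62 and 10.86 in the knockout and at 10.64 and 10.72 in wild type. Its relative Myom2, M-protein, was at 10.16 and 10.55 in the knockout and at 10.48 and 10.77 in wild type, a log2 difference of -0.27 ± 0.17 with an unadjusted limma p of 0.168. Smyd1, a muscle methyltransferase that takes part in myosin assembly, was at 10.23 and 10.37 in the knockout and at 10.33 and 10.12 in wild type.

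**Figure D3:**
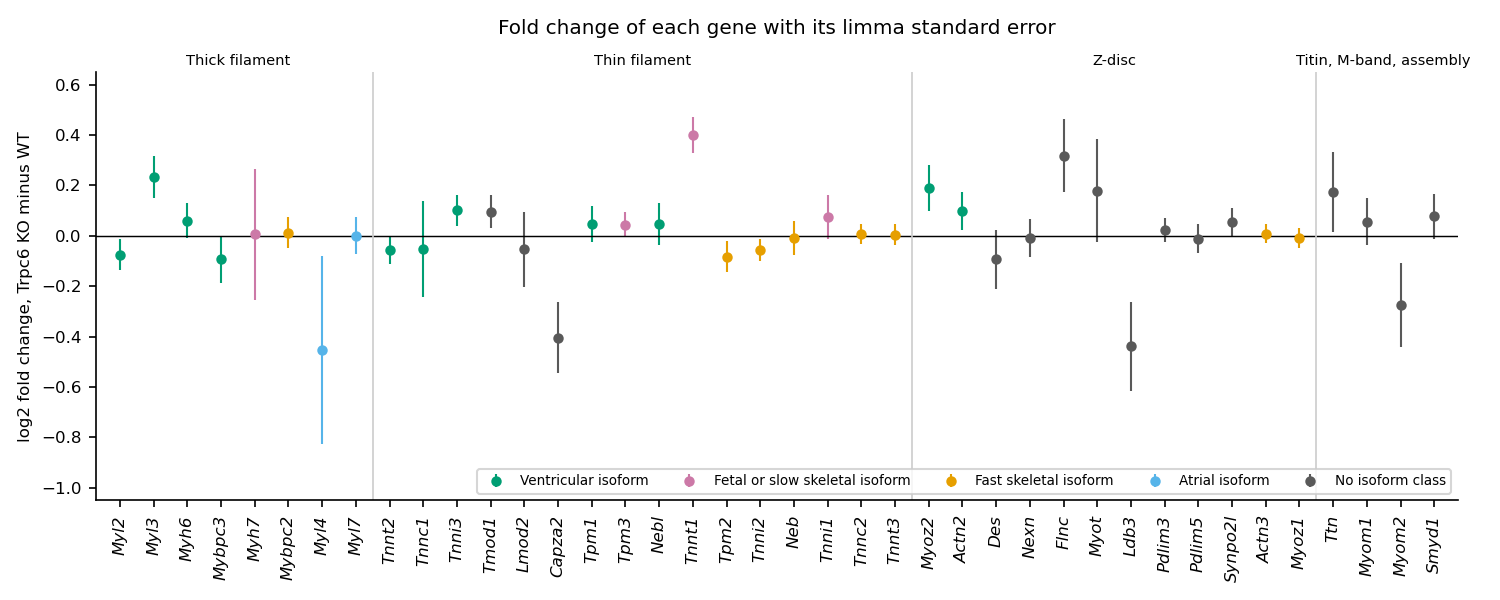
Log2 fold change of each member, Trpc6 KO minus WT, with its limma standard error (n = 2 arrays per group), ordered by role and coloured by isoform class. Tnnt1 at 0.40 has a short error bar, Myl4 at -0.45 a long one, and most members lie within 0.1 of 0.

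Grouped by isoform, 7 of the 11 ventricular isoforms were higher and 4 lower, with a median log2 fold change of 0.05. The 4 kept isoforms of fetal ventricle or slow muscle were all higher by sign, with a median of 0.06. Of them, Myh7 turned when arrays were scaled to their median, and Tnni1 and Tpm3 turned without wild-type sample 2. Myh7 also turned without knockout sample 2 (-0.35) and without wild-type sample 1 (-0.14). Of the 8 isoforms classed as fast skeletal 4 were higher and 4 lower, with differences from -0.08 for Tpm2 to 0.01 for Mybpc2. The atrial isoforms had log2 differences of -0.45 for Myl4 and 0.00 for Myl7.

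A ratio of an isoform to its ventricular counterpart within each array does not depend on a factor that scales the normalized values of both probes alike. Of 18 listed pairs, 14 had both genes kept, and 11 of these overlapped between the groups. The log2 ratio of Tnnt1 to Tnnt2 was -7.65 and -7.70 in the knockout and -7.98 and -8.28 in wild type, a difference of 0.46 or 1.37-fold. Tnni2 to Tnni3 differed by -0.16 and Myoz1 to Myoz2 by -0.20, also without overlap. With the local background subtracted all 3 turned, to -0.18 for Tnnt1 to Tnnt2, 0.70 for Tnni2 to Tnni3 and 0.24 for Myoz1 to Myoz2. In the last pair Myoz1 was at background, so that ratio moved with Myoz2. For Tnnt1 to Tnnt2 the difference was 0.63 with an offset of 0 and 0.64 in the authors' table. Its size thus depended on the processing. With 2 samples against 2 the smallest p an exact permutation test can give is 0.333, which each of these 3 pairs reached, and the adjusted p over the 14 pairs was 1.

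The ratio of Myh7 to Myh6 was -4.17 and -3.57 in the knockout and -3.90 and -3.73 in wild type on the log2 scale, a difference of -0.06. The knockout samples enclosed the wild-type samples, so no shift between the heavy chains was detectable at this spread. Myl4 to Myl3 differed by -0.69 in the mean, through wild-type sample 2, and overlapped. The remaining 9 pairs differed by -0.13 to 0.11. In 3 of these, those of Tnnt3, Tnnc2 and Actn3, the isoform was at background, so their ratios do not measure it. With both genes above the limit on all 4 arrays, 11 pairs remained. They include that of Myoz1, which was only just above each limit, so its ratio does not measure Myoz1 either.

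**Figure D4:**
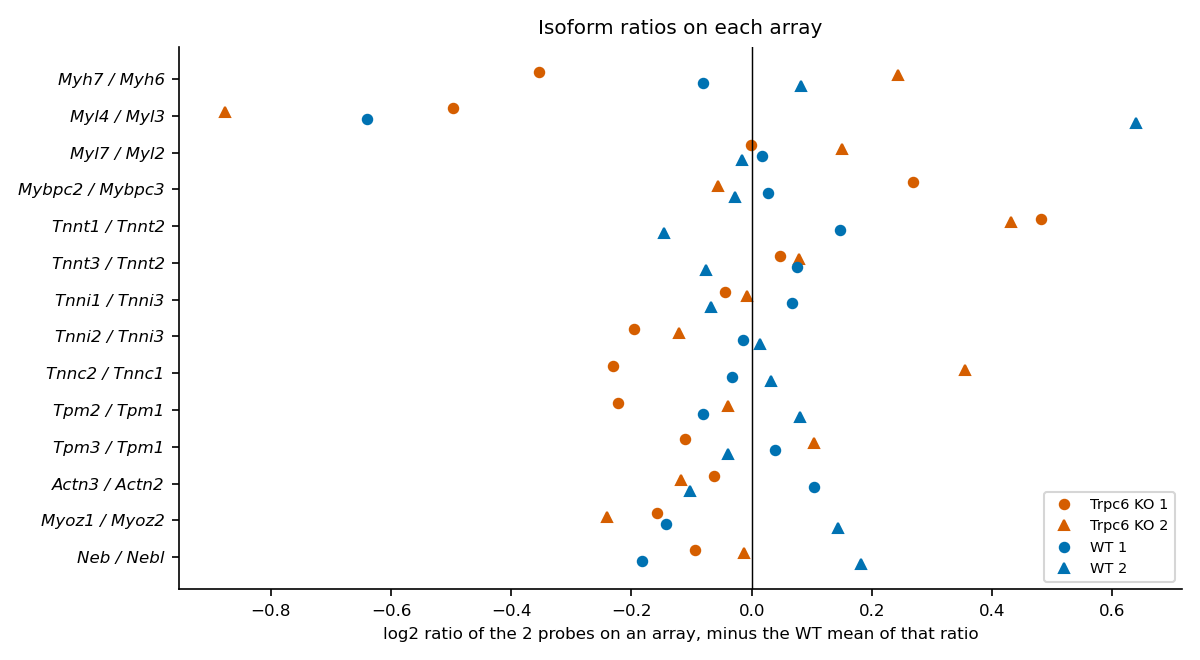
Log2 ratio of each isoform to its ventricular counterpart on each array, minus the wild-type mean of that ratio; circles and triangles are samples 1 and 2 of each genotype. Both knockout points of Tnnt1/Tnnt2 lie to the right of both wild-type points, and those of Myh7/Myh6 enclose them.

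Several of these genes are neighbours in the genome. In the GRCm38.p6 gene table no protein-coding gene lies between Tnnt1 and Tnni3, between Myh6 and Myh7, or between Myoz1 and Synpo2l, and 1 lies between Tnnt2 and Tnni1 and between Tnnt3 and Tnni2. Tnnt1 and its neighbour Tnni3 had log2 differences of 0.40 and 0.10, and Myh6 and Myh7 of 0.06 and 0.01.

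For most members the samples of a genotype differed more from each other than the means of the genotypes did. Single samples vary more than means of 2, so such an excess is common without any effect of genotype. The values over all genes are therefore given beside those of the members. The larger of the 2 differences within a genotype exceeded the difference of the means in 37 of 40 members (92.5%), and in 76.1% of all genes. The median size of the difference was 0.094 between the knockout samples, 0.132 between the wild-type samples and 0.059 between the genotypes, against 0.049, 0.061 and 0.043 over all genes. Knockout sample 2 exceeded knockout sample 1 most for Myh7 (0.71 on the log2 scale), Myot (0.56) and Ttn (0.44), and was below it for Tnnc1 (-0.55) and Flnc (-0.40). Wild-type sample 2 exceeded wild-type sample 1 most for Myl4 (1.08), Ldb3 (0.45) and Lmod2 (0.43). Knockout sample 2 had the highest value for 19 of the 40 members (47.5%, against 26.2% of all genes). Wild-type sample 2 had the lowest value for 15 (37.5%, against 32.3%) and the highest for 11 (27.5%, against 29.2%). Leaving out wild-type sample 2 moved the log2 fold change of Myl4 to 0.09, of Ldb3 to -0.21 and of Capza2 to -0.24, and that of Tnnt1 to 0.31.

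**Figure D5:**
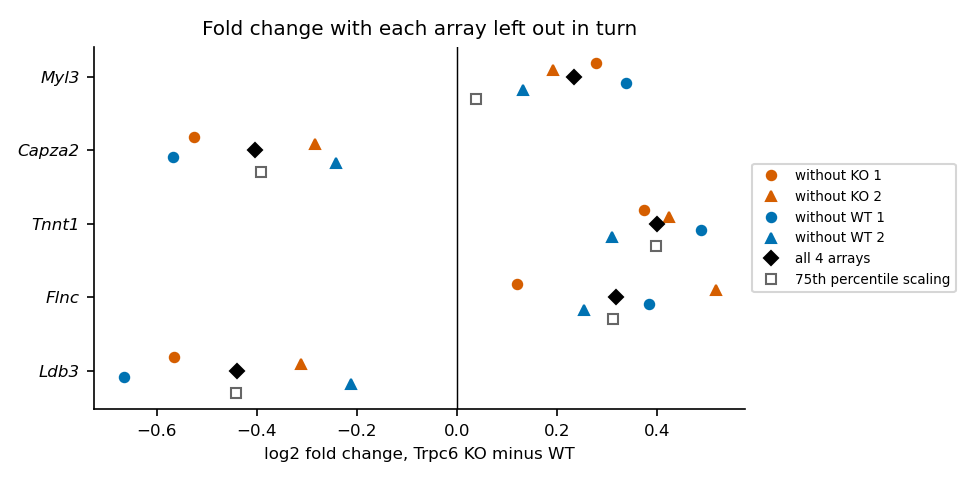
Log2 fold change, Trpc6 KO minus WT, of the 5 members described in full, from all 4 arrays (diamond), without each array in turn (coloured points) and with scaling to the 75th percentile (square). Each gene keeps its sign in all of these; Tnnt1 stays between 0.31 and 0.49, while Myl3 is 0.04 with 75th percentile scaling.

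Other genes of the sarcomere likewise included none that passed the test. Of 57 further genes listed for filaments, Z-disc, chaperones and turnover, 52 had a probe and 48 were kept, with 26 higher and 22 lower and 0 at an adjusted p under 0.05. At an unadjusted limma p under 0.05, 6 of the 48 were higher, where 3.66% of all genes were. Lower were 4 of the 48, where 3.08% of all genes were. Both shares of the list were above those of all genes, and this excess was not tested. The groups did not overlap for 15 of the 48 (31.2%, against 36.8% of all genes). The 8 with the smallest p included chaperones of the Z-disc. Hspb1, a small heat shock protein, was at 11.69 and 11.66 in the knockout and at 11.44 and 11.48 in wild type, a log2 difference of 0.22 ± 0.04 with an unadjusted p of 0.00392. Bag3, a co-chaperone that clears damaged filamin, was at 9.67 and 9.77 in the knockout and at 9.44 and 9.51 in wild type, a log2 difference of 0.25 ± 0.05. Both had knockout samples above wild-type samples by more than the spread within a genotype.
Fhod3, a formin that builds thin filaments, differed by 0.26 ± 0.07 and Xirp1, which binds actin at cell junctions of the heart, by 0.17 ± 0.05. The MuRF ubiquitin ligases of the sarcomere went both ways by sign: Trim63 differed by -0.58 ± 0.15 and Trim54 by -0.15 ± 0.04, while Trim55 differed by 0.18 ± 0.06. Trim63 was at 6.78 and 6.75 in the knockout and at 7.12 and 7.57 in wild type. Without wild-type sample 2 the differences of Trim63 and Trim55 were -0.36 and 0.11. Acta1, skeletal alpha-actin, which the fetal ventricle also uses, was at 12.09 and 11.54 in the knockout and at 11.28 and 10.93 in wild type. It differed by 0.71 ± 0.22, and by 0.44 without knockout sample 1. Each of these 8 had an adjusted limma p of 0.726.

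Markers of other tissues are given beside the isoforms that are not ventricular. The atrial list holds the members Myl4 and Myl7, and the skeletal list Tnni2, Tnnt3, Tnnc2 and Actn3. The sums of these lists are therefore not independent of those isoforms. The summed intensity over blank of 8 atrial markers was 4257 and 6073 units in the knockout and 3433 and 3660 units in wild type. Nppa, atrial natriuretic peptide, which the ventricle also makes, gave most of it, at 4126 and 5952 units in the knockout and 3275 and 3419 units in wild type, and 7 of the 8 were above background on all 4 arrays. The sum for 12 skeletal muscle markers was 295 and 307 units in the knockout and 421 and 246 units in wild type. Of these 12, 5 (Myl1, Casq1, Pvalb, Mylpf and Tnni2) were above background on all 4 arrays. Myl1 gave the largest part of the sum, at 246 and 255 units in the knockout and 345 and 204 units in wild type. The defining skeletal myosins Myh1, Myh2 and Myh4 and the calcium pump Atp2a1 were above background on no array. The cardiomyocyte sum was 198481 and 181865 units in the knockout and 199652 and 234875 units in wild type, and both knockout sums were below both wild-type sums, the nearest by a small margin. The mean normalized log2 level of these 10 markers was 13.09 and 13.11 in the knockout and 13.17 and 13.08 in wild type, which overlapped. The sum for blood markers was 3345 and 3378 units in the knockout and 947 and 3020 units in wild type. Wild-type sample 1 was low, and both knockout sums were above both wild-type sums. All 5 kept blood markers were higher without overlap (100%, where 19.4% of all genes were), with a median log2 fold change of 0.94. The part of these markers in the members' differences was not tested.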

How the data were processed

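Total RNA of ventricle muscle was amplified to amino allyl aRNA, coupled to Cy5 and hybridised to Toray arrays, per the labels' protocols. The authors deposited scanner tables of 27456 spots per array, whose values are the median pixel intensity of each spot and of its local background in linear units, per the file headers. How readings at several scanner gains were merged is unknown here. A further table deposited by the authors holds processed intensity values of these arrays on a linear scale. Set against the spot medians it followed a straight line, with a constant of 78.4 to 87.7 units subtracted per array, the rest scaled by 0.807 to 1.02 to a column median of 25, and 3714 to 4955 dim cells per array empty.

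Normexp background correction (limma 3.58.1, R 4.3.3, offset 50) was applied to the spot medians over all spots, without local background. Control spots were left out, spots of a probe averaged, and the linear values quantile normalized and then taken to log2. With this offset, fold changes of dim probes come out smaller. A probe was kept when it exceeded the 95th percentile of blank and negative control spots on at least 2 arrays. Symbols came from the platform annotation, and a gene's brightest kept probe stood for it.

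The 2 knockout arrays were compared with the 2 wild-type arrays by lmFit and eBayes without covariates (2 residual and 2.49 prior degrees of freedom), two-sided, with Benjamini-Hochberg adjustment over 15955 genes at 0.05. Isoform ratios were compared by exact permutation. The limma step was tested on simulated data. Alternatives concerned the background correction, normalization, filter, source of values, probe choice, variance model, a replicate block and the omission of single arrays.

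The genes, roles, isoform classes and marker lists were chosen with earlier results of these data known, so no list was tested. Per-array values are given for members with an unadjusted p under 0.05, for members without overlap and with a log2 difference of at least 0.2, and for the isoforms of each class, with a range only for Tnnt3 and Tnnc2. Of the other sarcomere genes, up to 8 with the smallest p under 0.05 are named. Further genes were named to describe their role, after their values had been seen. Promoters and neighbours came from RefSeq tables of GRCm38.p6.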

Additional observations from a re-analysis of the deposited data

How the results depend on the processing

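The median log2 fold change of the 40 members stayed near 0, from -0.01 to 0.12 over the 15 alternatives, against 0.01 as reported. Of the 40 members, 4 (Myl3, Tnnt1, Tpm2 and Tmod1) had the same sign in all 15, Myl2 was at 0 (within 1e-09) without wild-type sample 2 and did not turn, and 35 turned at least once. With the local background subtracted, the log2 fold change was 0.58 for Ldb3, -0.11 for Flnc and 0.50 for Capza2, and that of Tnnt1 was 0.03; the cause was not tested. Over all genes, 0 had an adjusted limma p under 0.05 (1076 at an unadjusted p under 0.05), 2 with the local background subtracted, and 0 to 1 without one array, the 1 without wild-type sample 2. The members with an unadjusted limma p under 0.05 numbered 3, against 5 with an offset of 16, 5 with an intensity trend in the variance, 1 with median scaling, 1 in the authors' table, and 3 to 12 without one array, where a lone sample is assumed to vary like the other genotype. The most, 12, came without wild-type sample 1, which also gave 2344 genes in all, against 445 without knockout sample 2. Of the 14 isoform pairs, 3 did not overlap, against 6 with the local background subtracted and 6 to 11 without one array, since 1 sample overlaps less easily with 2. Of all genes at an unadjusted p under 0.05, 584 were higher and 492 lower, against 397 and 676 with median scaling, 718 and 415 with 75th percentile scaling, and 217 and 462 in the authors' table. The samples' numbers gave no pairing, with a correlation of deviations of 0.0966. With 2 samples per group both pairs give this same value by construction. A limma fit with a replicate block left 0 genes at an adjusted p under 0.05 and 5 members at an unadjusted p under 0.05. The smallest adjusted limma p among the members ranged from 0.142 to 1. Probes close to background and 4 arrays limit what could be detected.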
